A study of Homo sapiens with 6 samples.

Results

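The integrated stress response and amino acid synthesis genes were 31 genes taken from a list of gene names, with no threshold on a measured value, out of the 29476 genes in the count table. The list held 32 symbols, of which CHOP is an older name of DDIT3 and was counted once. All 31 genes were among the 15615 genes that passed the expression filter and were tested. They comprised 7 transcription factors, 3 regulators of glutathione and mTORC1, 3 genes of eIF2α phosphorylation and its feedback, 14 genes of amino acid, one-carbon and PEP synthesis, and 4 genes of secreted proteins and a surface receptor.

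The study asked how loss of DDX17, a DEAD-box RNA helicase, alters the transcriptome of A549 cells, an established human lung adenocarcinoma line. Polyadenylated RNA was sequenced from 3 control libraries (siCtrl 1, 2 and 3) and 3 DDX17 knockdown libraries (siDDX17 1, 2 and 3). All cells were of the same line and received a Lipofectamine transfection, with a nontargeting siRNA for siCtrl and a single siRNA against DDX17 for siDDX17. The sample labels call the control a plasmid, whereas the study's methods describe a siRNA. Because only 1 targeting siRNA was used, effects of DDX17 loss and of that siRNA's other targets cannot be told apart. The harvest time of the sequenced cultures was not given apart from that of the cultures for RT-qPCR. The labels only number the libraries, so the p-values measure the spread between these samples.

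Library totals ranged from 30658136 to 39182371 counts. DDX17 stood at 177, 184 and 206 CPM (counts scaled to a common library size, with TMM factors) in siCtrl 1, 2 and 3 and at 32.1, 30.8 and 30.4 CPM in siDDX17 1, 2 and 3, which is 83.5% lower (adjusted p = 5.89e-11, edgeR quasi-likelihood test with Benjamini-Hochberg adjustment over all tested genes). siCtrl 1 stood apart from the other controls. Averaged over genes, a chi-square comparing the counts of 2 libraries gave 20.3 and 25.6 for siCtrl 1 with siCtrl 2 and 3, against 5.83 between siCtrl 2 and 3 and 3.62 to 5.49 between siDDX17 libraries. The biological coefficient of variation, the relative spread between libraries of a group beyond counting error, was 0.0754 with all 6 libraries and 0.0472 without siCtrl 1. Each member is therefore given in each library, and its comparison with and without siCtrl 1. The fit without siCtrl 1 rests on siCtrl 2 and 3 alone and on the smaller spread. A lower adjusted p in that fit is therefore not stronger evidence. All 7 markers of A549 cells were tested, with summed FPKM of 7257 to 7762 in siCtrl and 6549.9 to 6670.3 in siDDX17. Means of single A549 markers ranged from 0.757 to 2287 FPKM, so the sum does not speak for each marker. Summed FPKM was 0.450 to 0.830 in siCtrl and 0.870 to 0.910 in siDDX17 for the fibroblast markers, and 0.03 to 0.06 and 0.01 to 0.03 for the endothelial markers. The immune markers summed to 10.9 to 14.4 FPKM in siCtrl and 15.8 to 16.2 in siDDX17, nearly all from CD14 (mean 13.5 FPKM), while the pan-leukocyte marker PTPRC was near 0 (mean 0.00167 FPKM). Their part in the results below was not tested. COL1A2 and CD3E had no value here. In bulk RNA, fewer cells that express a gene and less of its RNA per cell cannot be told apart.

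In the integrated stress response, kinases that sense amino acid shortage, endoplasmic reticulum stress, double-stranded RNA or heme shortage phosphorylate the translation factor eIF2α. General translation then slows, while the mRNA of the transcription factor ATF4 is translated more. ATF4, often as a dimer with a C/EBP protein, activates genes for amino acid synthesis and uptake, for serine-derived one-carbon units, and for stress factors such as DDIT3 (CHOP), CHAC1 and TRIB3. In non-small-cell lung cancer lines, NRF2 is known to raise the serine synthesis genes through ATF4. ATF4 protein is set largely by translation, so its mRNA level alone does not give its activity.

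RefSeq promoter windows of GRCh38, from 250 bases before to 50 after the annotated start, were present for 24 of the 31 genes. ALDH1L2, GPT2, INHBE, NUPR1, PSPH, PYCR1 and SHMT2 had none in the table used. Both strands were searched for exact matches to the C/EBP-ATF response element TGATGNAA, the element that dimers of ATF4 and C/EBP proteins bind, to the cAMP response element TGACGTCA and to the UPR element TGACGTGG. The first was present in 5 of these 24 genes, against 4.46% of the 27305 genes with a window. The sites are shown because they are the letters through which ATF4 is known to act, each as 30 bases read 5′ to 3′ on the gene's strand with the match in capitals.
ASNS, chr7:97872458-97872487, minus strand: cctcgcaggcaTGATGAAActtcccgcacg
CEBPG, chr19:33374060-33374089, plus strand: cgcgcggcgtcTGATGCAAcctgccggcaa
CHAC1, chr15:40953251-40953280, plus strand: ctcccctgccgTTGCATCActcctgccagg
JDP2, chr14:75427995-75428024, plus strand: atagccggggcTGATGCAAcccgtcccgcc
MTHFD1L, chr6:150866346-150866375, plus strand: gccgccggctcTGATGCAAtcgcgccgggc
The matches began at positions -68, -42, -209, -16 and -129 relative to the start site, in that order, and that of CHAC1 lies on the strand opposite to the gene. The cAMP response element was found in PPP1R15A (2.25% of genes have it) and the UPR element in ALDH18A1 (0.927% of genes), where the match again lies on the opposite strand.
PPP1R15A, chr19:48872352-48872381, plus strand: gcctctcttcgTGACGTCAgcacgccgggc
ALDH18A1, chr10:95656753-95656782, minus strand: aggccctcgccCCACGTCAacagcgtaggg
The ER stress element was found in 0 of the 24 genes with a window and in 0.0916% of all genes with a window. A match is a description of the letters and not evidence of binding. Genes with a C/EBP-ATF match did not share a pattern in the counts. CEBPG and CHAC1 fell in siDDX17, MTHFD1L rose, and ASNS and JDP2 did not pass the test with all 6 libraries.

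With all 6 libraries, 14 of the 31 genes were lower in siDDX17 at an adjusted p under 0.05, whereas 24.3% of all tested genes were. Another 5 were higher, against 24.5% of all tested genes. Past a log2 fold change of -1 there were 6 lower genes, DDIT3, CHAC1, MTHFD2, SESN2, STC2 and GDF15, against a background of 2.92%. No gene was higher past a log2 fold change of 1 (background 4.65%), at an unadjusted p under 0.05 or by DESeq2 or limma either, since the highest value was 0.63 for CBS. The median log2 fold change of the 31 genes was -0.37, beside 0.01 for all tested genes. Without siCtrl 1, the counts were 14 lower (background 27.0%) and 6 higher (26.4%), with ASNS added and PSPH lost among the lower genes and PCK2 added among the higher ones. The median moved to -0.13, beside 0.01 for all genes, and 3 genes, CHAC1, MTHFD2 and GDF15, stayed past -1 (2.90%), with 0 past 1 (4.99%). Scaling by library size alone raised the median of all genes to 0.13 and left 9 genes lower (16.0% of all tested genes) and 5 higher (33.5%), and the directions of DDIT4, ASNS and PYCR1, none of them called, then turned.

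**Figure D1:**
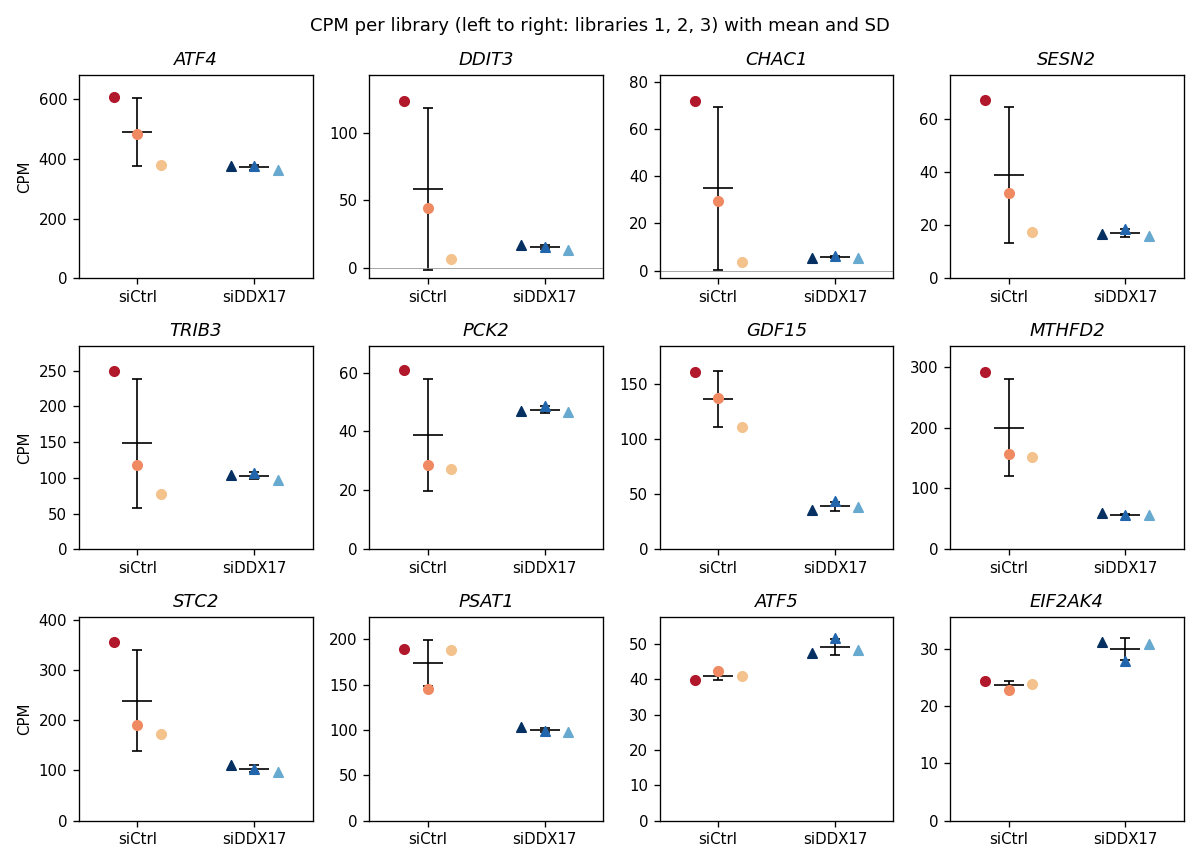
CPM (vertical axis, linear, including 0) of 12 genes in each siCtrl library (circles) and siDDX17 library (triangles), with the group mean and SD (black, n = 3). GDF15, MTHFD2, STC2 and PSAT1 do not overlap between groups, while the siDDX17 libraries of DDIT3, CHAC1, TRIB3 and PCK2 sit between the highest and the lowest control.

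Among the transcription factors, ATF4, DDIT3, CEBPB and CEBPG were lower and ATF5 was higher in siDDX17, and JDP2 and NUPR1 did not pass the test. The changes of ATF4, CEBPB, CEBPG and ATF5 were less than 2-fold. ATF4 (chr22:39519695-39522683, GRCh38), the central activator of the response, was at 608, 485 and 379 CPM in siCtrl 1, 2 and 3 and at 377, 375 and 363 CPM in siDDX17 1, 2 and 3. In CPM all siDDX17 libraries lay below all controls, but siDDX17 1 and siCtrl 3 differed by only 377 against 379 CPM. In FPKM siCtrl 3, at 138, was below siDDX17 1, 2 and 3, at 150.1, 147 and 146. The log2 fold change was -0.40 (SE 0.121, adjusted p = 0.0139), and -0.23 (SE 0.0581, adjusted p = 0.00120) without siCtrl 1. It was not called without siDDX17 2 (-0.41, adjusted p = 0.0573) or without siDDX17 3 (-0.38, adjusted p = 0.0558), with edgeR in each case.

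DDIT3 (chr12:57516588-57521737), which encodes the proapoptotic factor CHOP, varied far more between the controls than between the groups. It was at 124, 44.7 and 6.70 CPM in siCtrl 1, 2 and 3, an 18.4-fold range. In siDDX17 1, 2 and 3 it was at 16.6, 15.6 and 13.5 CPM, a 1.23-fold range that lies inside that of the controls. The siDDX17 mean was 0.123 times siCtrl 1, 0.340 times siCtrl 2 and 2.25 times siCtrl 3, so the direction differs with the control library chosen. In the edgeR fit the log2 fold change was -1.93 (SE 0.619, adjusted p = 0.0194) with all libraries and -0.72 (SE 0.279, adjusted p = 0.0292) without siCtrl 1. Leaving out siDDX17 1, 2 or 3 gave adjusted p = 0.0526, 0.0857 and 0.0724 at log2 fold changes of -2.00, -1.95 and -1.85.

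CEBPB (chr20:50190830-50192668), a partner and target of ATF4, was at 360.0, 302 and 265 CPM in siCtrl 1, 2 and 3 and at 204, 209.8 and 212 CPM in siDDX17 1, 2 and 3. The groups did not overlap, and siCtrl 1 was the highest and siCtrl 3 the lowest control, as for ATF4. The log2 fold change was -0.57 (SE 0.0878, adjusted p = 1.39e-04) and -0.45 (SE 0.05, adjusted p = 7.59e-10) without siCtrl 1. CEBPG, the other C/EBP partner listed, was at 68.1, 41.9 and 34.9 CPM in the controls and at 34.4, 32 and 31.4 CPM in siDDX17. In CPM the lowest control stood just above the highest siDDX17 library, but in FPKM siCtrl 3 (7.26) was below siDDX17 1 (7.81). For CEBPG the log2 fold change of -0.57 (SE 0.175, adjusted p = 0.0159) became -0.24 (SE 0.0684, adjusted p = 0.00301) without siCtrl 1. CEBPG was not called without siDDX17 2 (-0.56, adjusted p = 0.0736) or siDDX17 3 (-0.54, adjusted p = 0.0602).

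ATF5, a relative of ATF4 that is likewise controlled by translation and is known for the mitochondrial stress response, moved the other way. It was at 39.7, 42.3 and 40.8 CPM in siCtrl 1, 2 and 3 and at 47.5, 51.7 and 48.3 CPM in siDDX17 1, 2 and 3. The controls were within a 1.06-fold range and all lay below the siDDX17 libraries. ATF5 rose by a log2 fold change of 0.26 (SE 0.0604, adjusted p = 0.00270), and 0.23 (SE 0.0589, adjusted p = 0.00105) without siCtrl 1. JDP2, an AP-1 repressor, was at 35.7, 17.2 and 10.8 CPM in siCtrl 1, 2 and 3 and at 12.6, 13.6 and 12.1 CPM in siDDX17 1, 2 and 3. Here the log2 fold change was -0.73 (SE 0.295, adjusted p = 0.0548) and -0.13 (adjusted p = 0.361) without siCtrl 1. With siCtrl 2 left out it passed the test (-0.86, adjusted p = 0.0447), as it did with siCtrl 3 left out (-1.06, adjusted p = 4.33e-04). NUPR1, a stress-induced chromatin protein, was at 80.8, 55.2 and 51.2 CPM in siCtrl 1, 2 and 3 and at 53.9, 61.7 and 53.4 CPM in siDDX17 1, 2 and 3. It had a log2 fold change of -0.15 (adjusted p = 0.379), and of 0.08 (adjusted p = 0.311) without siCtrl 1.

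The 3 regulators of glutathione and mTORC1 gave 2 lower genes, CHAC1 and SESN2, and both rest on a wide spread of controls. CHAC1 (chr15:40952962-40956512), which degrades glutathione, was at 71.9, 29.3 and 3.52 CPM in siCtrl 1, 2 and 3 and at 5.45, 6.06 and 5.32 CPM in siDDX17 1, 2 and 3. The controls spanned a 20.4-fold range and the siDDX17 libraries a 1.14-fold range above siCtrl 3. The siDDX17 mean was 0.0786, 0.193 and 1.58 times siCtrl 1, 2 and 3. This gave a log2 fold change of -2.63 (SE 0.660, adjusted p = 0.00480), and -1.5 (SE 0.321, adjusted p = 1.41e-04) without siCtrl 1. The controls of that second fit, at 29.3 and 3.52 CPM, lay on either side of the siDDX17 libraries.

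SESN2 (chr1:28259518-28282491), a leucine sensor that restrains mTORC1, was at 67.1, 32.3 and 17.3 CPM in siCtrl 1, 2 and 3. In siDDX17 1, 2 and 3 it was at 16.5, 18.7 and 16.0 CPM. In CPM siCtrl 3 fell among the siDDX17 libraries and the other controls lay above them. In FPKM siCtrl 3, at 4.60, was below siDDX17 1, 2 and 3, at 4.79, 5.36 and 4.69. The log2 fold change was -1.19 (SE 0.328, adjusted p = 0.00869), and -0.53 (SE 0.123, adjusted p = 3.83e-04) without siCtrl 1. DDIT4 (REDD1), the other inhibitor of mTORC1 in the group, was at 508, 395 and 374 CPM in siCtrl 1, 2 and 3 and at 414, 433 and 398 CPM in siDDX17 1, 2 and 3. Its log2 fold change of -0.04 (adjusted p = 0.771) became 0.10 (adjusted p = 0.0715) without siCtrl 1, and it was also 0.08 when only library size was used for scaling.

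Of the genes of eIF2α phosphorylation and its feedback, the kinase gene EIF2AK4 rose and PPP1R15A and TRIB3 did not pass the test. EIF2AK4 (chr15:39934115-40035591) encodes GCN2, the kinase that senses uncharged tRNA. It was at 24.3, 22.8 and 23.8 CPM in siCtrl 1, 2 and 3 and at 31.2, 27.8 and 30.9 CPM in siDDX17 1, 2 and 3. The groups did not overlap and the controls were within a 1.06-fold range. siDDX17 over siCtrl gave a log2 fold change of 0.34 (SE 0.0708, adjusted p = 0.00127), and 0.35 (SE 0.0718, adjusted p = 7.15e-05) without siCtrl 1. PPP1R15A (GADD34), the phosphatase subunit that reverses eIF2α phosphorylation, was at 76.1, 44.9 and 29.9 CPM in siCtrl 1, 2 and 3 and at 33.8, 36.6 and 32.3 CPM in siDDX17 1, 2 and 3. The siDDX17 values lie between those of siCtrl 2 and 3. For PPP1R15A the log2 fold change was -0.55 (SE 0.227, adjusted p = 0.0582), -0.13 (adjusted p = 0.231) without siCtrl 1 and -0.83 (adjusted p = 2.92e-04) without siCtrl 3. TRIB3, a pseudokinase that is induced by ATF4 and inhibits it, was at 249, 118 and 77.4 CPM in siCtrl 1, 2 and 3 and at 104, 107 and 97.6 CPM in siDDX17 1, 2 and 3. For TRIB3 the log2 fold change was -0.52 (SE 0.281, adjusted p = 0.141), turned to 0.07 (adjusted p = 0.492) without siCtrl 1, and was -0.84 (adjusted p = 0.00202) without siCtrl 3.

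The 3 enzymes of serine synthesis were lower in siDDX17 with all 6 libraries, while asparagine synthetase was not called. PHGDH (chr1:119648411-119744218), the first enzyme of the pathway, was at 134, 145 and 163 CPM in siCtrl 1, 2 and 3 and at 118, 125 and 121 CPM in siDDX17 1, 2 and 3. The groups did not overlap, and siCtrl 1 was the lowest control, unlike in the stress factors. For PHGDH the log2 fold change was -0.28 (SE 0.0703, adjusted p = 0.00489), and -0.36 (SE 0.0532, adjusted p = 4.89e-07) without siCtrl 1. PSAT1 (chr9:78297125-78330093), the aminotransferase of the middle step, was at 189, 145 and 188 CPM in the controls and at 103, 98.8 and 98.2 CPM in siDDX17. Every siDDX17 library was below every control, with siCtrl 1 and 3 close together. PSAT1 was 42.7% lower (log2 fold change -0.80, SE 0.0866, adjusted p = 6.02e-06), and the value without siCtrl 1 was -0.75 (SE 0.0641, adjusted p = 1.09e-12).

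PSPH, the phosphatase of the last step, was at 58.9, 36.5 and 37.8 CPM in siCtrl 1, 2 and 3 and at 33.1, 35.8 and 34.2 CPM in siDDX17 1, 2 and 3. siCtrl 1 stood above all others, and the remaining controls were within a few CPM of the siDDX17 libraries. The log2 fold change of -0.37 (SE 0.139, adjusted p = 0.0404) was -0.13 (SE 0.0625, adjusted p = 0.0880) without siCtrl 1. PSPH was also not called without siDDX17 1, 2 or 3 (-0.35, -0.40 and -0.37, adjusted p = 0.116, 0.0951 and 0.104). ASNS, which makes asparagine and is a classical target of GCN2 and ATF4, was at 222, 245 and 295 CPM in siCtrl 1, 2 and 3 and at 256, 235 and 241 CPM in siDDX17 1, 2 and 3. siCtrl 1 was the lowest of all 6 libraries for this gene. For ASNS the log2 fold change was -0.06 (SE 0.0862, adjusted p = 0.590), -0.16 (SE 0.0568, adjusted p = 0.0171) without siCtrl 1 and 0.06 (adjusted p = 0.519) without siCtrl 3. ATF4, PSAT1, PSPH and MTHFD2 have pseudogene copies in the genome, so their counts of uniquely mapped reads are uncertain to that extent.

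The mitochondrial one-carbon enzymes did not move together, since MTHFD2 and SHMT2 fell, MTHFD1L rose and ALDH1L2 was not called. SHMT2 (chr12:57229573-57234935), which splits serine into glycine and a one-carbon unit, was at 187, 176 and 197 CPM in siCtrl 1, 2 and 3 and at 139, 148 and 133 CPM in siDDX17 1, 2 and 3. The groups did not overlap, and the controls were within a 1.11-fold range. In the edgeR fit the log2 fold change was -0.42 (SE 0.0616, adjusted p = 9.68e-05), and -0.43 (SE 0.0532, adjusted p = 1.22e-08) without siCtrl 1. MTHFD2 (chr2:74186172-74217565), the next enzyme of the mitochondrial pathway, was at 292, 157 and 151 CPM in siCtrl 1, 2 and 3 and at 58.9, 56.0 and 56.6 CPM in siDDX17 1, 2 and 3. siCtrl 1 was far above the other controls, and these in turn were far above every siDDX17 library. MTHFD2 was 71.4% lower (log2 fold change -1.81, SE 0.190, adjusted p = 4.80e-06), and 63.1% lower (-1.44, SE 0.0509, adjusted p = 8.41e-24) without siCtrl 1.

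MTHFD1L (chr6:150865679-151101887), which releases formate at the end of the mitochondrial pathway, was at 38.8, 37.0 and 41.1 CPM in siCtrl 1, 2 and 3 and at 52.5, 49.2 and 47.2 CPM in siDDX17 1, 2 and 3. It was higher in every siDDX17 library than in any control, although it is the neighbour of MTHFD2 in the pathway. The log2 fold change was 0.35 (SE 0.0650, adjusted p = 6.15e-04), and 0.33 (SE 0.0624, adjusted p = 2.20e-05) without siCtrl 1. ALDH1L2, a mitochondrial formyltetrahydrofolate dehydrogenase, was at 9.18, 7.10 and 10.3 CPM in siCtrl 1, 2 and 3 and at 10.0, 8.97 and 8.31 CPM in siDDX17 1, 2 and 3. Its log2 fold change was 0.03 (SE 0.128, adjusted p = 0.857), 0.04 (adjusted p = 0.808) without siCtrl 1, and took either sign when single libraries were left out (-0.11 without siCtrl 2 and -0.04 without siDDX17 1).

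Among the 6 genes of proline, alanine, cysteine and phosphoenolpyruvate (PEP) synthesis, ALDH18A1 and CBS rose and the other 4 did not pass the test. ALDH18A1 (chr10:95605941-95656711), which makes the precursor of proline, was at 63.8, 61.1 and 73.6 CPM in siCtrl 1, 2 and 3 and at 80.1, 81.4 and 77.8 CPM in siDDX17 1, 2 and 3. The groups did not overlap, with siCtrl 3 the closest control. This gave a log2 fold change of 0.27 (SE 0.0692, adjusted p = 0.00582), and 0.23 (SE 0.0608, adjusted p = 0.00171) without siCtrl 1. CBS, the first enzyme of transsulfuration from homocysteine to cysteine, was low, at 1.30, 1.12 and 1.47 CPM in siCtrl 1, 2 and 3 and at 2.05, 1.87 and 2.13 CPM in siDDX17 1, 2 and 3. There was no overlap between the groups. CBS had a log2 fold change of 0.63 (SE 0.181, adjusted p = 0.0111), and of 0.61 (SE 0.212, adjusted p = 0.0149) without siCtrl 1. The table holds a second CBS entry, a near-identical copy with 15 counts in all, so the CBS values are uncertain.

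PCK2 (chr14:24094053-24110598), the mitochondrial PEP carboxykinase, was the gene whose call depended most plainly on siCtrl 1. It was at 60.7, 28.6 and 27.3 CPM in siCtrl 1, 2 and 3 and at 46.8, 48.7 and 46.6 CPM in siDDX17 1, 2 and 3. siCtrl 1 was the highest of all 6 libraries, and siCtrl 2 and 3 were the lowest. The log2 fold change was 0.28 (SE 0.218, adjusted p = 0.305) with all libraries, and 0.75 (SE 0.0619, adjusted p = 4.74e-13), which is 68.3% higher, without siCtrl 1. Of the others, PYCR1, which makes proline, was at 116, 100.1 and 101 CPM in siCtrl 1, 2 and 3 and at 96.7, 108 and 92.6 CPM in siDDX17 1, 2 and 3. It had a log2 fold change of -0.10 (adjusted p = 0.294), and of -0.04 (adjusted p = 0.597) without siCtrl 1. CTH, which makes cysteine, was at 2.98, 2.48 and 1.65 CPM in siCtrl 1, 2 and 3 and at 2.34, 2.74 and 2.67 CPM in siDDX17 1, 2 and 3. For CTH the log2 fold change was 0.13 (adjusted p = 0.612), 0.34 (adjusted p = 0.132) without siCtrl 1 and -0.09 (adjusted p = 0.704) without siCtrl 3. GPT2, an alanine aminotransferase, was at 25.1, 15.1 and 16.7 CPM in siCtrl 1, 2 and 3 and at 15.8, 15.2 and 15.2 CPM in siDDX17 1, 2 and 3. Its log2 fold change was -0.30 (adjusted p = 0.0991), and -0.06 (adjusted p = 0.555) without siCtrl 1, whereas it was called without siCtrl 2 (-0.45, adjusted p = 0.0174) or siCtrl 3 (-0.39, adjusted p = 0.0385).

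The secreted factors GDF15 and STC2 and the receptor VLDLR were lower in siDDX17, and INHBE was not called. GDF15 (chr19:18374731-18389176), a stress-induced cytokine that signals to the hindbrain, was at 161, 138 and 111 CPM in siCtrl 1, 2 and 3 and at 35.6, 43.6 and 38.4 CPM in siDDX17 1, 2 and 3. The lowest control was well above the highest siDDX17 library. GDF15 was 71.3% lower (log2 fold change -1.80, SE 0.115, adjusted p = 5.41e-08), and 68.7% lower (-1.67, SE 0.0681, adjusted p = 5.51e-22) without siCtrl 1. STC2 (chr5:173314723-173328447), a secreted glycoprotein, was at 356, 189.9 and 172 CPM in siCtrl 1, 2 and 3 and at 111, 102 and 97.3 CPM in siDDX17 1, 2 and 3. siCtrl 1 was again the highest, and all controls were above all siDDX17 libraries. STC2 had a log2 fold change of -1.21 (SE 0.199, adjusted p = 2.36e-04), and -0.81 (SE 0.0540, adjusted p = 1.15e-15), inside the limit of -1, without siCtrl 1.

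VLDLR (chr9:2621182-2660056), a lipoprotein receptor, was at 44.2, 37.2 and 42.7 CPM in siCtrl 1, 2 and 3 and at 34.5, 33.2 and 33.5 CPM in siDDX17 1, 2 and 3. In CPM no siDDX17 library reached a control, but in FPKM siDDX17 1 (3.77) and siDDX17 3 (3.70) exceeded siCtrl 2 (3.63). VLDLR fell with a log2 fold change of -0.30 (SE 0.0715, adjusted p = 0.00379), and of -0.26 (SE 0.0648, adjusted p = 9.04e-04) without siCtrl 1. INHBE, an activin subunit, was at the edge of detection with 44, 12 and 4 counts in siCtrl 1, 2 and 3 and 5, 5 and 15 counts in siDDX17 1, 2 and 3. Its log2 fold change was -1.44 (SE 0.699, adjusted p = 0.105), -0.17 (adjusted p = 0.836) without siCtrl 1 and -1.99 (adjusted p = 0.00606) without siCtrl 3.

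**Figure D2:**
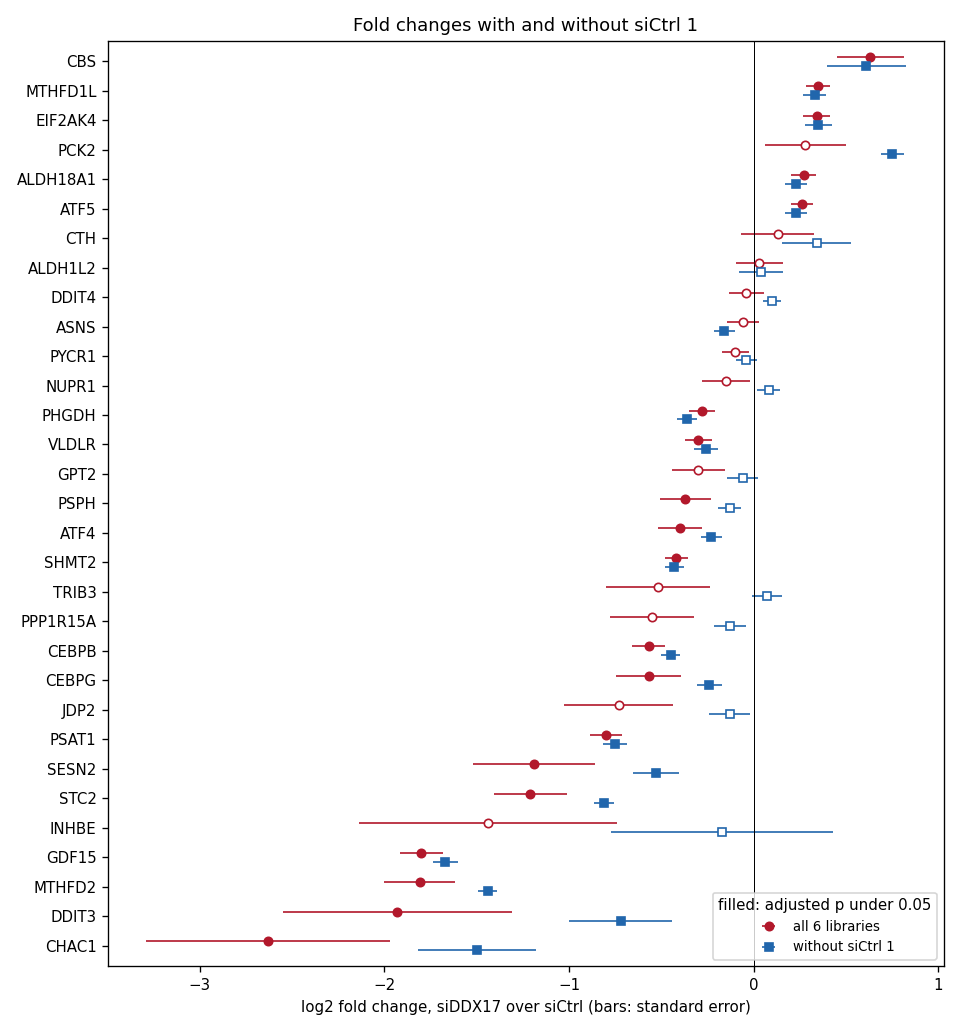
Log2 fold change of siDDX17 over siCtrl (horizontal axis, bars are SE) of the 31 genes with all 6 libraries (red circles) and without siCtrl 1 (blue squares), filled where the adjusted p was under 0.05. The red and blue values nearly coincide for GDF15, PSAT1, SHMT2 and the higher genes, and lie far apart for CHAC1, DDIT3, SESN2, INHBE and PCK2.

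Across the alternatives that leave out 1 library, 10 genes were called lower in all 6 fits, namely CHAC1, PSAT1, PHGDH, SHMT2, MTHFD2, CEBPB, SESN2, VLDLR, STC2 and GDF15. The 5 higher genes, ATF5, MTHFD1L, ALDH18A1, CBS and EIF2AK4, were called in all 6 as well. No share of all tested genes is given for calls in all 6 fits, so these counts are not read as a trait of the list. DESeq2 called 9 lower (23.2% of all tested genes) and 5 higher (21.9%) and did not call ATF4, DDIT3, PSPH, CEBPG or SESN2 (adjusted p = 0.0688, 0.101, 0.182, 0.107 and 0.0625). With limma on log2(FPKM + 1), CHAC1, PHGDH and VLDLR also missed the threshold (adjusted p = 0.139, 0.112 and 0.199), and the 6 lower genes left, against 15.2% of all tested genes, were PSAT1, SHMT2, MTHFD2, CEBPB, STC2 and GDF15. The 5 higher genes were called in that fit too, where 33.3% of all tested genes were.

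The level per length, as FPKM, put DDIT4 (223 ± 42.2, SD, n = 3), ATF4 (179 ± 44.5), CEBPB (145 ± 24.6), GDF15 (104 ± 20.6) and ASNS (93.4 ± 13.4) highest in the controls. DDIT4 and ATF4 lay about 1 SD apart, and ATF4 and CEBPB, like GDF15 and ASNS, differed by less than the larger SD of the pair. PSAT1 followed at 73.0 ± 11.9. SHMT2 (56.4 ± 3.88) stood above PHGDH (39 ± 3.79), while MTHFD2 (41.3 ± 17.3) and STC2 (41.1 ± 18.3) differed from both by less than their own spread. ALDH1L2, CTH, CBS and INHBE were lowest, at 1.08 ± 0.212, 1.02 ± 0.296, 0.430 ± 0.0656 and 0.230 ± 0.240 FPKM. The asparagine and serine synthesis genes ASNS and PSAT1 were thus well expressed in the controls, whereas the transsulfuration genes CBS and CTH were near 1 FPKM or below.

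For several of these genes the controls differed more from one another than the siDDX17 libraries did. The 3 controls were more than 2-fold apart for 9 of the 31 genes, DDIT3, CHAC1, TRIB3, SESN2, STC2, PCK2, PPP1R15A, JDP2 and INHBE, against 5.09% of all tested genes. siCtrl 1 was the highest control for 23 genes, against 39.8% of all tested genes, and the highest of all 6 libraries for 22, against 22.1%. The log2 difference of siCtrl 1 from the mean of siCtrl 2 and 3 had a median of 0.50 over the 31 genes and ranged from -0.27 for ASNS to 2.83 for DDIT3, beside a median of 0.01 for all tested genes. It was positive for 26 genes and over 1 for 8. In the same units, siDDX17 differed from siCtrl 2 and 3 by a median of -0.11, from -1.66 for GDF15 to 0.76 for PCK2. Both differences share siCtrl 2 and 3 and were not set against each other. The SD of log2 CPM had a median of 0.34 in siCtrl and 0.07 in siDDX17 for the 31 genes, and of 0.13 and 0.09 for all tested genes. By that SD in siCtrl, CHAC1 (2.22) and DDIT3 (2.13) ranked 2 and 3 of the 15615 genes, INHBE ranked 7, SESN2 ranked 74, JDP2 ranked 126 and TRIB3 ranked 135. siCtrl 2 and 3 also differed, by a log2 value of 3.04 for CHAC1, 2.73 for DDIT3 and 1.55 for INHBE, so the spread of these genes is not that of siCtrl 1 alone.

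**Figure D3:**
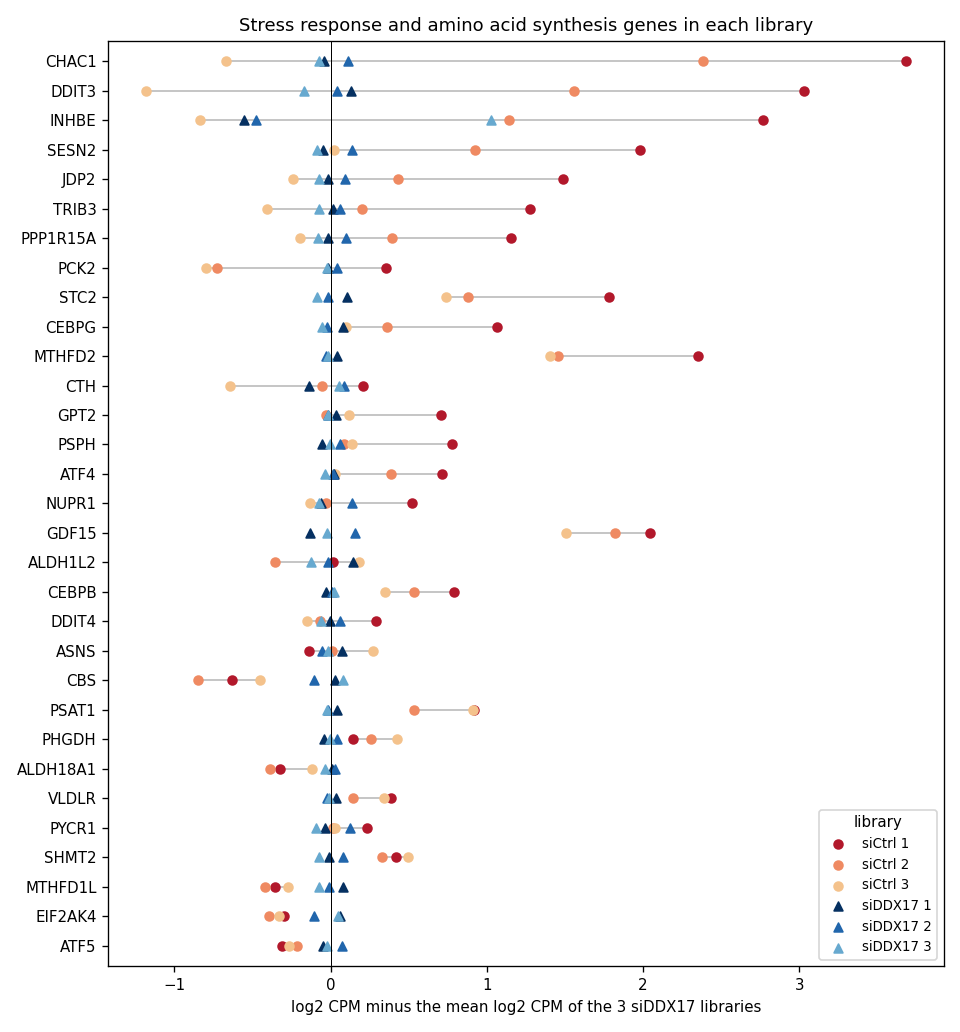
Log2 CPM of the 31 genes in each library, relative to the mean of the siDDX17 libraries (horizontal axis), ordered by the range of the siCtrl libraries, with siCtrl as circles, siDDX17 as triangles and a grey line from the lowest to the highest control. The siDDX17 libraries lie close together for all genes but INHBE, and siCtrl 1 (dark red) is the rightmost point for 22 genes.

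Set against this spread, the siDDX17 libraries lay wholly below or above the controls for 11 and 5 genes, wholly inside for 13 and partly inside for SESN2 and PYCR1. All siDDX17 libraries were below all controls for 11 genes, ATF4, PSAT1, PHGDH, PSPH, SHMT2, MTHFD2, CEBPB, CEBPG, VLDLR, STC2 and GDF15 (background 27.7%). They were above all controls for the 5 higher genes (background 28.8%). These comparisons were made in CPM with TMM factors. In FPKM the siDDX17 and siCtrl libraries overlapped for ATF4, PSPH, CEBPG and VLDLR among the 11 genes. On that scale SESN2 and PYCR1 lay wholly inside the control range. For 13 genes all siDDX17 libraries lay, in CPM, between the highest and the lowest control, against 11.6% of all tested genes. These were DDIT3, DDIT4, CHAC1, TRIB3, ASNS, ALDH1L2, NUPR1, CTH, GPT2, PCK2, PPP1R15A, JDP2 and INHBE. Of these, ALDH1L2 did not lie inside in FPKM, since siDDX17 1 (1.33) was above the highest control (1.25). For a single gene, an exact permutation test of 3 against 3 libraries cannot give a two-sided p below 0.1.

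**Figure D4:**
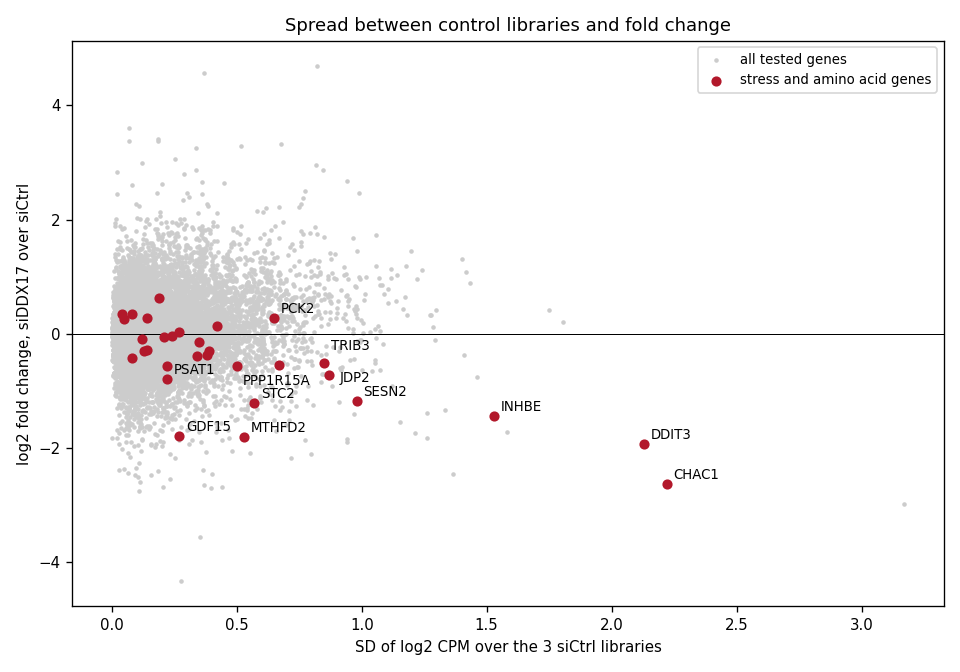
Log2 fold change of siDDX17 over siCtrl (vertical axis) against the SD of log2 CPM over the 3 siCtrl libraries (horizontal axis) for all tested genes (grey) and the 31 genes (red). GDF15 and PSAT1 have fold changes of -1.80 and -0.80 at a control SD of 0.27 and 0.22, while CHAC1 and DDIT3 have the widest control SD of the 31 genes, at 2.22 and 2.13.

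The rest of the pathway was read from 10 further gene lists, whose counts stand beside 24.3% lower and 24.5% higher over all tested genes with all libraries, and 27.0% and 26.4% without siCtrl 1. Of the 20 genes of eIF2 signalling, such as kinases, eIF2B subunits and phosphatase subunits, 9 were lower and 5 higher (9 and 6 without siCtrl 1), with a median log2 fold change of -0.06 in either fit, and the higher genes were about as frequent as among all tested genes. OMA1 (0.70) and EIF2A (0.54), which is not the gene of eIF2α, were higher. GCN1 (-0.51), which activates GCN2, was lower, so that GCN1 and EIF2AK4 changed in opposite directions. Of 27 other ATF4 targets, 10 were lower and 5 higher, the latter a smaller share than the 24.5% of all tested genes, and the median was -0.21 with all libraries and 0.10 without siCtrl 1. Among them GARS1, the glycyl-tRNA synthetase, was lower (-0.69) and SESN3 higher (0.67), while ADM2 had -1.39 (adjusted p = 0.0302) with all libraries and -0.27 (adjusted p = 0.311) without siCtrl 1. Of 11 amino acid transporters, 8 were lower in either fit, beside 24.3% and 27.0% of all tested genes, and the other 3 did not pass the test, with medians of -0.47 with all libraries and -0.27 without siCtrl 1. The glycine transporter SLC6A9 was at 8.33, 6.08 and 6.62 CPM in siCtrl 1, 2 and 3 and at 1.06, 1.37 and 1.14 CPM in siDDX17 1, 2 and 3 (-2.56, adjusted p = 7.02e-08). SLC36A1 (-0.90) and the arginine transporter SLC7A1 (-0.60, and -0.27 without siCtrl 1) were lower as well.

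Of 16 further one-carbon and glycine genes, 4 were lower, among them TYMS (-0.73) and the mitochondrial folate carrier SLC25A32 (-0.70), and 4 were higher, among them the glycine decarboxylase GLDC (0.34), with a median of 0.03. Both counts are near the shares of 24.3% and 24.5% over all tested genes. Of 15 genes of proline, glutamate, aspartate and the urea cycle, 6 were lower (24.3% of all tested genes), such as GLUD1 (-0.70) and GOT1 (-0.51), and 2 higher, such as ALDH4A1 (0.42), with a median of -0.17. Of 10 methionine, cysteine and glutathione genes, 6 were lower and 2 higher (against 24.3% and 24.5% of all tested genes), with a median of -0.35. GSS (-0.76) and GCLC (-0.62), which make glutathione, and MAT2A (-0.63), which makes S-adenosylmethionine, were among the lower ones.

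The IRE1 and ATF6 branches of the unfolded protein response, which run beside the ATF4 branch under endoplasmic reticulum stress, also differed between the controls. The list held targets of these branches and the sensor genes ERN1 (IRE1) and ATF6. siCtrl 1 was the highest control for 17 of its 17 genes (39.8% of all tested genes), and 7 had controls more than 2-fold apart (5.09%). The siDDX17 libraries lay inside the control range for 12 (11.6%). HERPUD1 was at 474, 155 and 52.8 CPM in siCtrl 1, 2 and 3 and at 68.4, 75.7 and 61.0 CPM in siDDX17 1, 2 and 3, in the order of DDIT3 and CHAC1. With all libraries 3 of the 17 were lower (HERPUD1 at -1.73, ERN1 at -1.16 and EDEM1 at -0.64) and 1 was higher (median -0.16), against 24.3% and 24.5% of all tested genes. Without siCtrl 1 it was 3 lower and 9 higher (median 0.20), against 27.0% and 26.4%, with HERPUD1 at -0.59, ERN1 at -0.78 and EDEM1 at -0.45. NRF2 targets were read because A549 cells are known for a KEAP1 mutation and active NRF2. Of 15, 10 were lower, such as PGD (-0.67) and SRXN1 (-0.64), and 1 was higher, ME1 (0.73), against 24.3% and 24.5% of all tested genes, with medians of -0.29 and -0.27 with and without siCtrl 1. siCtrl 1 was the highest control for 3 of these 15 (39.8% of all tested genes). Of 12 p53 targets, 4 were lower and 3 higher (median -0.05), near the shares of 24.3% and 24.5% over all tested genes, with CDKN1A at -1.12, XPC at 1.01 and BTG2 at 0.70. Of 17 genes of mTORC1 and amino acid sensing, 5 were lower (8 without siCtrl 1, against 24.3% and 27.0% of all tested genes), among them the arginine sensor CASTOR1 (-1.04), RRAGA (-0.78) and RHEB (-0.36), and 1 was higher (median -0.09), while SAMTOR was not matched in the table.

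**Figure D5:**
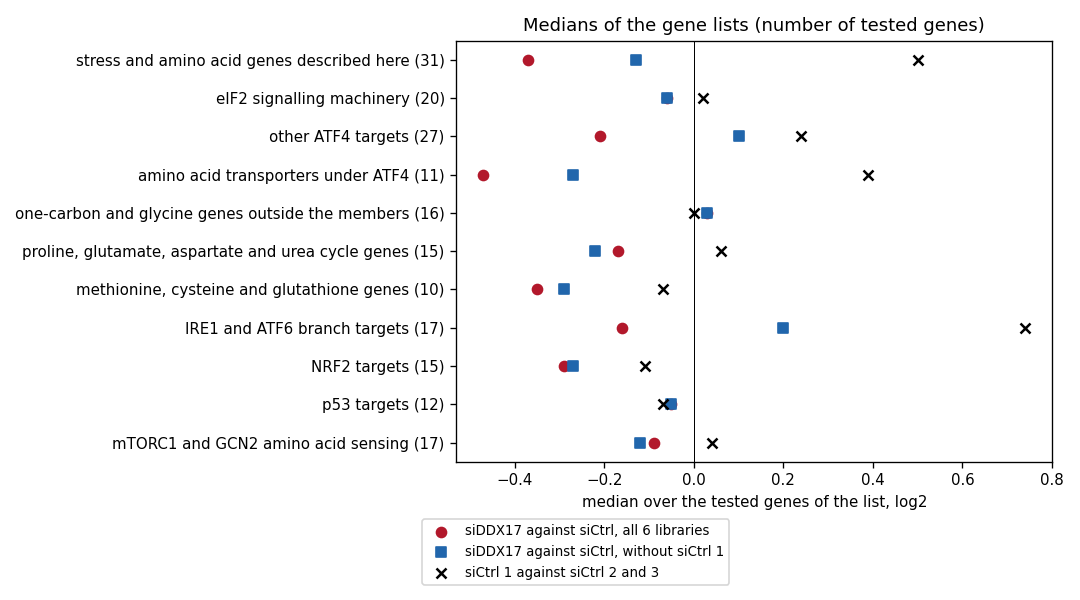
Median log2 value over the tested genes of each list (horizontal axis), for siDDX17 against siCtrl with all 6 libraries (red), the same without siCtrl 1 (blue), and siCtrl 1 against siCtrl 2 and 3 (crosses). The crosses stand at 0.74 for the IRE1 and ATF6 branch list and 0.50 for the 31 genes, and at -0.11 for the NRF2 targets, whose red and blue points nearly coincide at -0.29 and -0.27.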

How the data were processed

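TopHat2 was used by the authors to align trimmed reads to GRCh38, and the deposited raw counts are of uniquely mapped reads per gene, with 1 column per library. The deposited FPKM values were corrected by the authors for transcript length and sequencing depth, then rounded. The libraries kept strand, but the counting program, annotation release and use of strand are not given in the sources used here, so overlapping and antisense genes are uncertain.

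The counts of all 29476 genes were fitted with edgeR 4.0.16 in R 4.3.3 (TMM, filterByExpr, glmQLFit, glmQLFTest, Benjamini-Hochberg over 15615 tested genes), and again from the start without siCtrl 1 (15996 genes). The call limit was an adjusted p of 0.05. Each SE of an edgeR fold change was derived from the test, as the absolute log2 fold change over the square root of F. It was not estimated separately. DESeq2 1.42.0 and limma 3.58.1 on log2(FPKM + 1) and log2(FPKM + 0.1) were alternatives, as were other scalings, filters, a replicate block and each library left out. Fold changes on the FPKM scale understate the change of low genes, but genes that were not low also differed there. With limma on log2(FPKM + 0.1), DDIT3 had -1.01 and ATF4 -0.25, against -1.93 and -0.40 with edgeR. ATF5 had 0.39 against 0.26, and the median of all tested genes was 0.12 against 0.01. What these differences rest on was not tested. SDs of log2 CPM used a prior count of 2. Gene positions are those of GENCODE 44, matched by identifier. Only the edgeR fit of 6 libraries was run on simulated counts with known changes. These had the same dispersion in both groups, so they do not test the unequal spread of siCtrl and siDDX17 seen here.

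The genes and all lists were chosen with earlier results of these data known, so no count over them is independent evidence. The rule asked for values in each library of members called with all 6 libraries and of ATF4, DDIT3, CEBPB and EIF2AK4, and the other members were given in each library too. From each further list, the 3 genes with the largest absolute log2 fold change among called genes with an average log2 CPM of at least 1 were named. CD14 and PTPRC were named after their values were seen. No protein sequence was used here. Python 3.11.15, pandas 2.3.3 and matplotlib 3.10.9 were used.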

Additional observations from a re-analysis of the deposited data

How the results depend on the processing

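Of the 464 values of single genes recomputed under an alternative, 391 kept their direction and their side of the threshold. The 14 lower genes became 9 with DESeq2, 9 with library size only, 6 with limma on log2(FPKM + 1) or log2(FPKM + 0.1), and 7 at the limits of the methods (p under 0.01 and a fold change over 1.5), where the 5 higher genes became 1. With the replicate number as a block the 14 lower genes became 13, since the replicate block did not call DDIT3 (-1.33, adjusted p = 0.0552), and no other call changed. The deviations of same-numbered libraries from their group means correlated at 0.01, 0.04 and -0.06, and siCtrl 1 correlated best with siDDX17 3 (0.06), so the numbers were not taken as pairs. The 6 genes past a log2 fold change of -1 became 2 with either limma fit and 3 to 8 when a library was left out. Shares over all tested genes are not given at the limits of the methods, with log2(FPKM + 0.1) or with the block. They are also not given for these alternatives past -1, except without siCtrl 1. Such counts are not set against a background. Without a low-count filter TRIB3, GPT2, PPP1R15A, JDP2 and INHBE were called lower and PCK2 higher, and the cause was not tested. Directions turned for DDIT4 (0.08 with library size only, 0.10 with both limma fits), ASNS (0.06, and 0.08), PYCR1 (0.02, and 0.03) and NUPR1 (0.01 with limma), none of them called. When 1 library was left out, directions turned within ranges of -0.12 to 0.10 for DDIT4, -0.84 to 0.07 for TRIB3, -0.28 to 0.08 for NUPR1, -0.11 to 0.15 for ALDH1L2, -0.16 to 0.06 for ASNS and -0.09 to 0.34 for CTH. The median log2 difference of siCtrl 1 from the other controls was 0.45 on the log2(FPKM + 1) scale, beside 0.50. At this depth INHBE, with 4 to 44 counts, and CBS and CTH, at 1.12 to 2.98 CPM, are the least precise.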

Other observations

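Among the 8975 tested genes with an average log2 CPM of at least 3, the SD of log2 CPM over the siCtrl libraries was highest for CHAC1, then DDIT3, then HERPUD1 (1.58). SESN2 ranked 8, JDP2 11, TRIB3 12, PPP1R15A 22 and PCK2 25, and the chaperone genes DNAJB9, a target of IRE1, and HSPA5, the main endoplasmic reticulum chaperone, ranked 10 and 17. HSPA5 was at 1179.6, 552 and 448 CPM in siCtrl 1, 2 and 3, with 600.2, 583 and 575 CPM in siDDX17 1, 2 and 3. HSPA1A, which encodes a cytosolic heat shock protein, ranked 7 and was at 30.9, 72.0 and 124 CPM in siCtrl 1, 2 and 3, whereas siDDX17 1, 2 and 3 had 117, 124 and 126 CPM. The mitochondrially encoded MT-ND6 ranked 5, with 450.1, 106 and 121 CPM in siCtrl 1, 2 and 3, and siDDX17 1, 2 and 3 had 71.0, 87.9 and 72.3 CPM. The short noncoding BCYRN1 ranked 4 and was lowest in siCtrl 1, at 31.3 CPM against 196 and 165 CPM in siCtrl 2 and 3. These genes were named after their values were seen, and what the control libraries differed in was not tested.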
